A study of Mus musculus with 13 samples.

Results

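The genes described here are 10 genes of prostaglandin synthesis, breakdown and reception in mouse tail tissue with lymphedema, a swelling that follows failed lymphatic drainage. They were chosen by name, and all 10 symbols matched a row of the count table, which held 55357 genes. They were Ptgs1, Ptgs2, Ptges, Ptgds, Hpgds, Ptgis, Hpgd, Ptger2, Ptger3 and Ptger4. RNA was sequenced from 6 libraries of the TNTProx1 group and 7 of the TNTSham group, each taken from murine tail on day 28 after TNT at an age of 12 weeks. Both groups therefore share the tail lymphedema and a TNT procedure, and differ by what the label names, Prox1 or sham. TNT is read as tissue nanotransfection, which moves nucleic acids into skin with a brief electric field. The sources used here do not give strain, sex, the construct or whether any sample pools animals, nor do they say that the libraries of a group came from separate animals. The p-values then measure only the spread between these libraries, which may in part be technical.

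Prostaglandins are short-lived lipid signals made from arachidonic acid. Phospholipases free the acid from membranes, the cyclooxygenases Ptgs1 and Ptgs2 turn it into prostaglandin H, and terminal synthases turn that into prostaglandin E (Ptges), prostaglandin D (Ptgds, Hpgds) or prostacyclin (Ptgis). Hpgd, 15-hydroxyprostaglandin dehydrogenase, starts their breakdown inside cells, and Ptger2, Ptger3 and Ptger4 are receptors for prostaglandin E. In skin these signals are known for widening vessels, promoting swelling and pain and shaping the response of immune cells.

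The total count per library was 29691929 to 48007392, and the lowest count of any member was 30, for Ptger2 in TNTSham 7. Levels are in CPM, a gene's counts scaled to a common library total after TMM correction for library composition. All 10 members passed the filter on low counts. Prox1 itself stood at 42.8, 72.9, 29.6, 18.7, 28.5 and 32.6 CPM in TNTProx1 1 to 6, against 23.4 to 33.1 CPM in TNTSham, so that TNTProx1 1 and 2 exceeded every TNTSham library and TNTProx1 4 fell short of them all. TNTProx1 4, 5 and 6 stood apart from the other 10 libraries. The share of counts from genes of the class TEC, models that await experimental support, was 0.136 to 0.193% in these 3, 0.565 to 0.745% in TNTProx1 1 to 3 and 0.378 to 0.701% in TNTSham. Malat1, a long noncoding RNA held in the nucleus, stood at 3410 to 3539 CPM in TNTProx1 4 to 6, 12670 to 16600 CPM in TNTProx1 1 to 3 and 8979 to 16810 CPM in TNTSham. The results that rest on either set are therefore also given for TNTProx1 1 to 3 and TNTProx1 4 to 6 alone. Keratinocyte markers (8 of 8 tested, such as Krt5 and Krt14) summed to 5427 to 53960 CPM in TNTProx1 and 25020 to 39160 CPM in TNTSham, so that epidermis was present in every library, least in TNTProx1 2. Skeletal muscle markers were lower in TNTProx1 for 7 of 8 (5 at unadjusted p under 0.05) and osteoclast markers higher for 6 of 6 (5 at unadjusted p under 0.05). Langerhans cell, Schwann cell and adipocyte markers were higher for 1 of 4, 2 of 6 and 3 of 6. No marker gene passed the adjusted test, and none was at 0 in every library.

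The sequence around an annotated start of the cyclooxygenase genes is shown because this pair catalyses the same reaction while only Ptgs2 is known as strongly inducible. A further reason is that, of the 10 genes, Ptgs2 had the largest difference between the groups. The windows are those of RefSeq on GRCm38.p6, from 250 bases before to 50 after an annotated start, both on the plus strand, chr1:150099781-150100080 for Ptgs2 and chr2:36230176-36230475 for Ptgs1. The counts were made on GRCm39, and no coordinate was carried between the builds. Capitals mark matches on either strand to the C/EBP palindrome TTGCGCAA, the E-box CACGTG, the core TGACG of the cyclic AMP response element or the TATA box TATAAA. 
Ptgs2: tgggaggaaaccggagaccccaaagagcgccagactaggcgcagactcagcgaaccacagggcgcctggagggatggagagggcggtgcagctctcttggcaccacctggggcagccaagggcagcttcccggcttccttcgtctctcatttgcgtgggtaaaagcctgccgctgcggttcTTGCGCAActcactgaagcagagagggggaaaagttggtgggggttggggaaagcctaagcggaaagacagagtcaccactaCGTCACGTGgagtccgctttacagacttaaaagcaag
Ptgs1: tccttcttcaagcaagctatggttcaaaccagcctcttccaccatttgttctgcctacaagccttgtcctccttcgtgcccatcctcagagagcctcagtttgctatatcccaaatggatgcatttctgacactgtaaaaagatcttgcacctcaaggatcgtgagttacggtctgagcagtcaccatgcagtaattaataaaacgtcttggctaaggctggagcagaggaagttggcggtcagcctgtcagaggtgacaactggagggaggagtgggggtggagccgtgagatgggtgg
In the Ptgs2 window the C/EBP palindrome lay at bases 182 to 189, before the annotated start. The core TGACG, on the minus strand, lay at bases 264 to 268 and overlapped the E-box at bases 267 to 272. Both the core and the E-box lay after the start annotated for this window. That start need not be the one most used, so the window may lie wholly before the main start. Which start was used in these libraries was not measured. No match was found in the Ptgs1 window. The palindrome was found in 0.183% of all 32851 RefSeq windows of this length, the E-box in 7.15%, the core TGACG in 20.8% and the TATA box in 13.6%. Of the 9 members with a window, Ptgs2 was the single one with any of the first 3 motifs, and Hpgd the single one with the TATA box letters. A match is a description of the letters and no evidence of a bound factor, and these motifs were chosen because they are known from work on Ptgs2.

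In TNTProx1 tails Ptgs2, the inducible cyclooxygenase, had the largest difference of the 10 genes and averaged 2.55 times its TNTSham level in the fit, but the libraries of both groups scattered widely and the difference did not pass the test over all genes. Ptgs1, Hpgds, Hpgd, Ptger3 and Ptger4 had fold changes within 0.03 of 0 on the log2 scale. Ptges, Ptgis and Ptger2 stood slightly higher and Ptgds slightly lower, none beyond the spread between libraries. With edgeR's quasi-likelihood test and Benjamini-Hochberg adjustment, 0 of the 10 genes passed at an adjusted p under 0.05, as did 0 of all 22876 genes tested (0%). At an unadjusted p under 0.05 there was 1 member, Ptgs2, which is 1 in 10 beside 12.2% of all genes. The median log2 fold change of the members was 0.02, beside -0.02 for all genes tested. In 0 of the 10 did the groups separate without overlap, beside 0.612% of all genes. DESeq2 called 0 members and 2.71% of all genes, and limma voom with quality weights called 1 member, Ptgs2, and 2.5% of all genes. With the TEC share as a covariate edgeR called 0 members and 2.38% of all genes. In whole tissue, fewer cells of a type and less RNA per cell cannot be told apart.

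**Figure D1:**
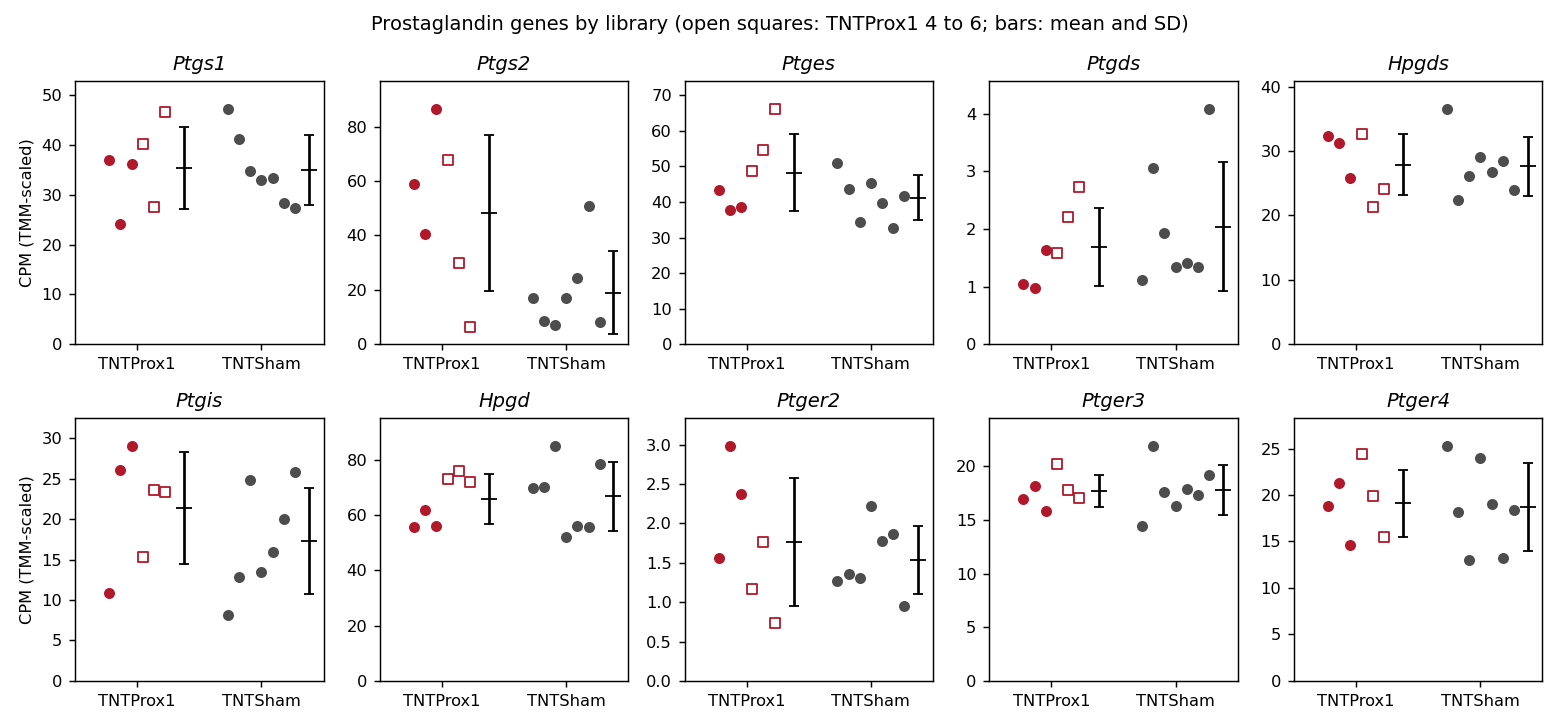
Level of each of the 10 genes in CPM (vertical axis, from 0) in the 6 TNTProx1 and 7 TNTSham libraries, with the mean and SD beside each group; open squares are TNTProx1 4 to 6. For Ptgs2, TNTProx1 1, 3 and 4 lie above every TNTSham library and TNTProx1 6 below them all, while the groups overlap for every gene.

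Ptgs2 (ENSMUSG00000032487.9, chromosome 1) was counted at 58.8, 40.6, 86.4, 67.7, 30.0 and 6.44 CPM in TNTProx1 1 to 6, against 16.9, 8.51, 6.95, 17.0, 24.4, 50.7 and 8.21 CPM in TNTSham 1 to 7. Thus 5 TNTProx1 libraries lay above 6 of the 7 TNTSham libraries, the sixth, TNTProx1 6, lay below all of them, and TNTSham 6 reached the middle of the TNTProx1 range. The log2 fold change was 1.35 ± 0.53 (SE), with a 95% interval of 0.22 to 2.49, an unadjusted p of 0.0226 and an edgeR adjusted p of 0.308. Of all genes tested, 99.0% had a smaller absolute fold change. The coefficient of variation of Ptgs2 was 59.2% in TNTProx1 and 81.0% in TNTSham, while that of Ptgs1 was 23.3% in TNTProx1 and 20.1% in TNTSham.

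The size of the Ptgs2 difference depended on the libraries and on their weights. With TNTProx1 1 to 3 alone the log2 fold change was 1.71 (95% interval 0.61 to 2.81, edgeR adjusted p = 0.0908), and with TNTProx1 4 to 6 alone it was 0.88 (interval -0.52 to 2.28, adjusted p = 0.326). The first comparison called 0 of all 23853 genes tested, with 0.0685 as the lowest edgeR adjusted p of any gene, and the second called 29.6%. In limma voom with quality weights the log2 fold change of Ptgs2 was 2.15 with an adjusted p of 0.0393, past the threshold. Over the fits that leave out a single library it ranged from 1.09 to 1.82, with adjusted p from 0.171 to 0.522, and without TNTProx1 3 its unadjusted p also missed 0.05.

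The genes most like Ptgs2 across libraries included a chemokine. Among 18616 tested genes of mean log2 CPM above 0, the nearest to it by Spearman correlation over the 13 libraries were the long noncoding RNA Mirt2 (0.956), Cxcl3 (0.934), a chemokine that attracts neutrophils, and Gm5483 (0.929). Their log2 fold changes were 1.96, 1.30 and 1.90. These were the highest of all correlations with Ptgs2, over libraries that also vary together in composition, so they describe likeness only. Neutrophil markers (6 of 8 tested, of which 4 were higher, 1 at unadjusted p under 0.05 and 0 adjusted) summed to 88.3 to 248 CPM in TNTProx1 and 39.3 to 286 CPM in TNTSham, with Ly6g at 0 to 0.426 CPM. TNTProx1 6, lowest in Ptgs2 of its group, was also lowest there in neutrophil markers. However, TNTProx1 3, highest in Ptgs2 at 86.4 CPM, had a neutrophil sum of only 98.7 CPM. TNTSham 1, highest of all 13 in neutrophil markers, had a Ptgs2 level of 16.9 CPM. Macrophage markers (7 of 8 higher, 4 at unadjusted p under 0.05, 0 adjusted) summed to 778 to 1142 CPM in TNTProx1 and 707 to 1253 CPM in TNTSham. The part of either cell type in the Ptgs2 values was not tested.

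Ptgs1 (ENSMUSG00000047250.14), the constitutive cyclooxygenase, had a lowest, median and highest level of 24.2, 36.6 and 46.6 CPM in TNTProx1, against 27.3, 33.4 and 47.2 CPM in TNTSham. TNTProx1 2 lay below the TNTSham range and the others within it, and the log2 fold change was 0.01 ± 0.16 (SE; 95% interval -0.34 to 0.36; adjusted p = 0.984), with a sign that turned in several other fits. As a fold, the interval is 0.793 to 1.28. Counted per kilobase of annotated exon, the ratio of Ptgs2 to Ptgs1 within a library was 1.35, 1.42, 2.02, 1.42, 0.921 and 0.117 in TNTProx1 1 to 6, against 0.303, 0.175, 0.169, 0.437, 0.619, 1.52 and 0.255 in TNTSham 1 to 7. So Ptgs2 was the more abundant cyclooxygenase transcript per length in 4 of 6 TNTProx1 libraries and in 1 of 7 TNTSham libraries. This ratio was not tested.

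**Figure D2:**
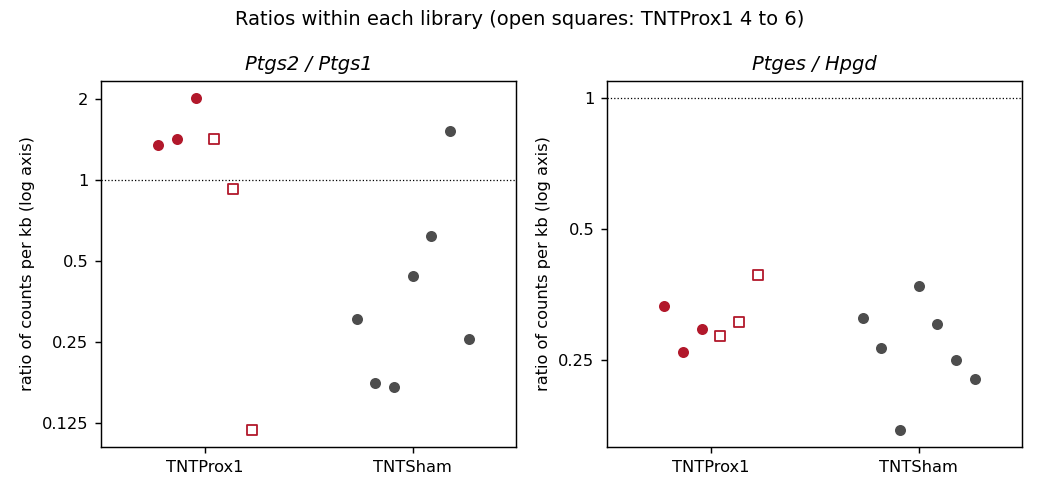
Ratio of Ptgs2 to Ptgs1 (left) and of Ptges to Hpgd (right) in counts per kilobase within each library, on log axes, for 6 TNTProx1 and 7 TNTSham libraries; open squares are TNTProx1 4 to 6 and the dotted line marks a ratio of 1. The Ptgs2 to Ptgs1 ratio exceeds 1 in 4 TNTProx1 and 1 TNTSham libraries, while the Ptges to Hpgd ratio spans 0.261 to 0.393 in TNTProx1 and 0.173 to 0.371 in TNTSham.

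Of the terminal synthases, Ptges (ENSMUSG00000050737.14), the inducible microsomal synthase of prostaglandin E, was counted at 43.4, 37.7, 38.5, 48.8, 54.5 and 66.1 CPM in TNTProx1 1 to 6, against a lowest, median and highest level of 32.6, 41.6 and 50.9 CPM in TNTSham. TNTProx1 5 and 6 lay above the TNTSham range and TNTProx1 1 to 4 lay within it. Over all libraries the log2 fold change was 0.23 ± 0.14 (SE; 95% interval -0.08 to 0.53; adjusted p = 0.558). With TNTProx1 4 to 6 alone it was 0.47 (interval 0.17 to 0.76) with an edgeR adjusted p of 0.0230, in a comparison that called 29.6% of all genes tested. With TNTProx1 1 to 3 alone it was -0.05, so that the positive value came from the libraries that stood apart.

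Ptgis (ENSMUSG00000017969.14), prostacyclin synthase, had a lowest, median and highest level of 10.9, 23.5 and 29.0 CPM in TNTProx1, against 8.19, 15.9 and 25.9 CPM in TNTSham. The ranges overlapped over most of their length, with TNTProx1 2 and 3 above the TNTSham range, and the log2 fold change was 0.30 ± 0.27 (SE; 95% interval -0.27 to 0.88; adjusted p = 0.687). Both sets of TNTProx1 libraries gave a like value, 0.34 for 1 to 3 and 0.27 for 4 to 6. Its nearest genes were Nbl1, a secreted BMP antagonist (Spearman 0.962), Plod1, a collagen lysyl hydroxylase (0.934), and Phldb1 (0.929). Smooth muscle markers (8 tested, 7 higher, 0 at unadjusted p under 0.05) summed to 462 to 800 CPM in TNTProx1 and 465 to 699 CPM in TNTSham. Fibroblast markers (8 tested, 8 higher, 2 at unadjusted p under 0.05) summed to 20460 to 46940 CPM in TNTProx1 and 14950 to 25310 CPM in TNTSham. Most of the fibroblast sum was Col1a2, which averaged 23200 CPM in TNTProx1 and 15800 CPM in TNTSham. The highest Ptgis and fibroblast values both came from TNTProx1 3. TNTSham 5, with a fibroblast sum of 25280 CPM, had Ptgis at 15.9 CPM, and TNTSham 7, with a sum of 20150 CPM, had Ptgis at 25.9 CPM. The part of fibroblasts in the Ptgis values was not tested.

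Neither prostaglandin D synthase differed between the groups beyond the spread between libraries. Hpgds (ENSMUSG00000029919.6), the hematopoietic enzyme of mast cells and macrophages, stood at 21.4, 28.5 and 32.7 CPM (lowest, median, highest) in TNTProx1, against 22.4, 26.8 and 36.5 CPM in TNTSham. Its log2 fold change was 0.01 ± 0.13 (SE; 95% interval -0.27 to 0.30; adjusted p = 0.974), and its nearest genes were Zfp458, Cd80, a costimulatory ligand of antigen-presenting cells, and Jaml, at Spearman 0.863 to 0.874. Hpgds and mast cell markers were both highest in TNTSham 1 (a sum of 448 CPM over 8 markers, against 151 to 291 CPM in the other 12 libraries), and 0 of the 8 markers passed even at unadjusted p under 0.05. TNTSham 1 was also highest of all 13 libraries in macrophage markers (1253 CPM) and in neutrophil markers (286 CPM). The part of any of these cell types in the Hpgds values was not tested. Ptgds (ENSMUSG00000015090.14), the lipocalin-type synthase, was sparse, at 0.977, 1.61 and 2.73 CPM in TNTProx1 and 1.122, 1.40 and 4.08 CPM in TNTSham. Its log2 fold change of -0.27 ± 0.36 (SE; adjusted p = 0.792) had an interval of -1.03 to 0.50, too wide to show whether it differed.

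Hpgd (ENSMUSG00000031613.10), the breakdown enzyme, was the most abundant member per length in both groups. It was counted at 55.8, 61.8, 55.9, 73.3, 76.1 and 72.1 CPM in TNTProx1 1 to 6, against 52.2, 69.9 and 85.1 CPM (lowest, median, highest) in TNTSham. TNTProx1 4 to 6 all lay above TNTProx1 1 to 3, and TNTSham spanned both. The log2 fold change was -0.02 ± 0.13 (SE; 95% interval -0.30 to 0.26; adjusted p = 0.962), with -0.21 for TNTProx1 1 to 3 alone and 0.15 for 4 to 6 alone. The ratio of Ptges to Hpgd per kilobase had a median of 0.301 in TNTProx1 and 0.267 in TNTSham, within overlapping ranges.

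The prostaglandin E receptors did not separate the groups. Ptger4 (ENSMUSG00000039942.16), which raises cyclic AMP, stood at 14.7, 19.4 and 24.4 CPM (lowest, median, highest) in TNTProx1 and 13.1, 18.4 and 25.3 CPM in TNTSham. Ptger3 (ENSMUSG00000040016.17), which mainly lowers cyclic AMP, stood at 15.9, 17.4 and 20.2 CPM in TNTProx1 and 14.4, 17.6 and 21.9 CPM in TNTSham, the steadiest member with a coefficient of variation of 8.38% in TNTProx1 and 13.1% in TNTSham. Their log2 fold changes were 0.03 ± 0.17 and -0.01 ± 0.10 (SE; adjusted p = 0.962 and 0.976), with intervals of -0.34 to 0.40 and -0.23 to 0.21, which for Ptger3 is a fold of 0.850 to 1.16. Ptger2 (ENSMUSG00000037759.7), also coupled to cyclic AMP, was the sparsest member per length in both groups and stood at 1.55, 2.98, 2.37, 1.17, 1.77 and 0.729 CPM in TNTProx1 1 to 6 and 0.955, 1.36 and 2.22 CPM (lowest, median, highest) in TNTSham. TNTProx1 2 and 3 lay above the TNTSham range and TNTProx1 6 below it, and the log2 fold change of 0.20 ± 0.32 (SE; adjusted p = 0.828) was 0.58 for TNTProx1 1 to 3 alone and -0.32 for 4 to 6 alone.

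**Figure D3:**
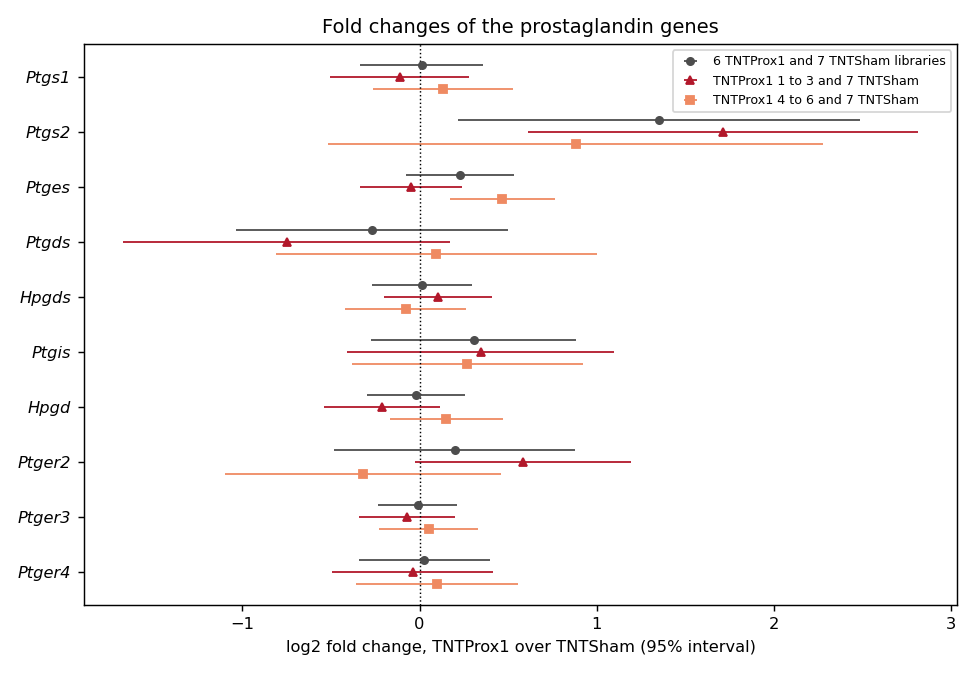
Log2 fold change of each of the 10 genes, TNTProx1 over TNTSham, with its 95% interval (horizontal axis), from all 13 libraries (circles), with TNTProx1 1 to 3 alone (triangles) and with TNTProx1 4 to 6 alone (squares), each against the 7 TNTSham libraries. The Ptgs2 intervals are the widest and their centres lie furthest to the right, and the intervals of Ptgs1, Hpgds, Hpgd, Ptger3 and Ptger4 include 0 in all 3 comparisons.

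On the scale of mean CPM per kilobase of annotated exon, the order of levels in TNTProx1 was Hpgd (39.1 ± 5.40, SD), Ptges (12.2 ± 2.75), Ptgs2 (10.6 ± 6.24), Ptgs1 (9.10 ± 2.12), Ptgis (8.33 ± 2.69), Hpgds (4.34 ± 0.745), Ptger3 (3.11 ± 0.260), Ptger4 (2.87 ± 0.550), Ptgds (1.03 ± 0.410) and Ptger2 (0.339 ± 0.157). In TNTSham it was Hpgd (39.7 ± 7.46), Ptges (10.5 ± 1.60), Ptgs1 (9.02 ± 1.81), Ptgis (6.74 ± 2.55), Hpgds (4.30 ± 0.712), Ptgs2 (4.14 ± 3.35), Ptger3 (3.13 ± 0.411), Ptger4 (2.82 ± 0.712), Ptgds (1.24 ± 0.674) and Ptger2 (0.296 ± 0.0835). Ptgs2 stood between Ptges and Ptgs1 in TNTProx1 and between Hpgds and Ptger3 in TNTSham. Neighbours in this order overlapped within 1 SD from Ptges to Ptgis and between Ptger3 and Ptger4 in TNTProx1, and from Ptges to Ptger4 in TNTSham, and the other neighbours did not. The lengths come from an annotation of an older build and count exons of every transcript, so levels of genes with long rarely used exons are understated. For the members not yet given one, the gene nearest across the 13 libraries was Slitrk6 for Ptgs1 (Spearman 0.934), Atp6v0a2 for Ptges (0.951), Sp6 for Ptgds (0.940), Ddrgk1 for Hpgd (0.934), Ddx51 for Ptger2 (0.962), Gmpr for Ptger3 (0.874) and Sdhaf2 for Ptger4 (0.929).

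The rest of the pathway was read from 24 further genes, of which 23 were tested and Ptgdr2, a prostaglandin D receptor, was too low to be kept. By edgeR's adjusted p 0 of 23 passed, and at unadjusted p under 0.05 there were 4, which is 1 higher beside 8.33% of all genes and 3 lower beside 3.92%. Higher values in TNTProx1 were found for 11 and lower values for 12, and the median of their log2 fold changes was -0.04. The 3 lower genes were Pla2g4e, a member of the cytosolic phospholipase family, Slco2a1, the transporter that takes prostaglandins up into cells, and Abcc4, which exports them. The higher gene was Tbxa2r, the thromboxane receptor.

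Slco2a1 was counted at 77.3, 67.5, 63.5, 65.9, 54.8 and 42.1 CPM in TNTProx1 1 to 6, against 73.0, 79.0, 70.0, 116, 77.0, 79.5 and 79.5 CPM in TNTSham 1 to 7. Of the 6 TNTProx1 libraries 5 lay below the TNTSham range. The log2 fold change was -0.41 ± 0.14 (SE; 95% interval -0.71 to -0.10; edgeR adjusted p = 0.258), with -0.24 for TNTProx1 1 to 3 alone and -0.59 for 4 to 6 alone, the second at an adjusted p of 0.0190 in a comparison that called 29.6% of all genes. Blood endothelial markers, from cells that also express this transporter, were higher in TNTProx1 for 8 of 8 at unadjusted p under 0.05 (0 adjusted), with sums of 613 to 827 CPM in TNTProx1 against 337 to 635 CPM in TNTSham, and their part in the Slco2a1 values was not tested. Abcc4 averaged 40.1 ± 2.85 CPM in 6 TNTProx1 and 45.3 ± 2.65 CPM in 7 TNTSham libraries (SD), and differed by -0.18 ± 0.08 on the log2 scale (SE; edgeR adjusted p = 0.358).

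Tbxa2r was counted at 0.958, 2.73, 1.87, 1.73, 3.20 and 3.62 CPM in TNTProx1 1 to 6, against 0.978 to 1.57 CPM in TNTSham, so that 5 TNTProx1 libraries exceeded all of TNTSham and TNTProx1 1 was below them. Its log2 fold change was 0.86 ± 0.29 (SE; 95% interval 0.23 to 1.48; edgeR adjusted p = 0.241). With TNTProx1 4 to 6 alone it was 1.15 at an adjusted p of 0.0111, in the comparison that called 29.6% of all genes, and with TNTProx1 1 to 3 alone 0.52. Platelet markers (4 of 5 tested, 3 higher, 1 at unadjusted p under 0.05, 0 adjusted) summed to 64.3 to 68.4 CPM in TNTProx1 4 to 6, 40.9 to 51.5 CPM in TNTProx1 1 to 3 and 39.8 to 57.1 CPM in TNTSham. The 1 at unadjusted p under 0.05 was Pf4 (29.2 CPM on average in TNTProx1, 19.3 CPM in TNTSham), and the untested marker, Gp9, was at 0 to 0.117 CPM. Smooth muscle markers (0 of 8 at unadjusted p under 0.05) summed to 687 to 800 CPM in TNTProx1 4 to 6, 462 to 559 CPM in TNTProx1 1 to 3 and 465 to 699 CPM in TNTSham. Blood endothelial markers summed to 613 to 827 CPM in TNTProx1 4 to 6 and 659 to 720 CPM in TNTProx1 1 to 3. The part of platelets, smooth muscle or endothelium in the Tbxa2r values was not tested. Among the other receptors, Ptgfr for prostaglandin F had a log2 fold change of 0.44 ± 0.23, Ptgir for prostacyclin of 0.24 ± 0.21, Ptgdr for prostaglandin D of 0.36 ± 0.69 and Ptger1 of -0.20 ± 0.35 (SE; adjusted p = 0.463 to 0.857).

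Of the phospholipase and lipase genes, Pla2g4e was counted at 78.3, 33.2, 51.6, 69.5, 90.5 and 80.9 CPM in TNTProx1 1 to 6, against 73.4, 102 and 117 CPM (lowest, median, highest) in TNTSham. Whether Pla2g4e frees arachidonic acid here was not measured. Its log2 fold change was -0.58 ± 0.20 (SE; 95% interval -1.003 to -0.16; edgeR adjusted p = 0.242), and limma voom with quality weights put it past the threshold (-0.86, adjusted p = 0.0393). Both Pla2g4e and the sum of keratinocyte markers were lowest of all 13 libraries in TNTProx1 2 (33.2 and 5427 CPM) and second lowest in TNTProx1 3 (51.6 and 17110 CPM). TNTProx1 6 had the highest keratinocyte sum of all 13 (53960 CPM) with Pla2g4e at 80.9 CPM, and TNTProx1 4 had a sum within the TNTSham range (28190 CPM) with Pla2g4e at 69.5 CPM, below every TNTSham library. Skeletal muscle markers summed to 4124 to 11630 CPM in TNTProx1 and 9084 to 15400 CPM in TNTSham. TNTProx1 4 had the lowest muscle sum of all 13 libraries. TNTProx1 5, with a muscle sum of 4521 CPM, had Pla2g4e at 90.5 CPM, the highest of its group. The part of epidermis or muscle in the Pla2g4e values was not tested. Pla2g4a, the main cytosolic phospholipase, had a log2 fold change of -0.04 ± 0.13, and Mgll, a lipase that also yields arachidonic acid, of -0.07 ± 0.22. Pla2g4a ranged from 22.8 to 41.0 CPM in TNTProx1 and from 25.5 to 37.9 CPM in TNTSham, and Mgll from 136 to 346 CPM in TNTProx1 and from 186 to 383 CPM in TNTSham, so that the groups overlapped. For Mgll the log2 fold change was 0.29 (95% interval -0.15 to 0.72) with TNTProx1 4 to 6 alone and -0.54 (interval -1.04 to -0.05; edgeR adjusted p = 0.193) with TNTProx1 1 to 3 alone, on either side of its value over all libraries. The other phospholipases lay between -0.77 for Pla2g4c and 0.40 for Pla2g4d on the log2 scale.

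Several of the remaining enzymes had fold changes of opposite sign in the 2 sets of TNTProx1 libraries. Relative to TNTSham, the log2 fold changes with TNTProx1 4 to 6 alone and with TNTProx1 1 to 3 alone were 0.76 and -0.21 for Ptges2, a further prostaglandin E synthase, 0.38 and -0.15 for Ptges3, which is also the co-chaperone p23, and 0.46 and -0.13 for Akr1b3, an aldose reductase that makes prostaglandin F. For Tbxas1, thromboxane synthase, they were -0.51 and 0.56. Ptges2, Ptges3 and Akr1b3 passed with TNTProx1 4 to 6 alone (edgeR adjusted p = 0.0111 to 0.0126), beside 29.6% of all genes. With TNTProx1 1 to 3 alone 0 of the 23 passed, beside 0 of all 23853 genes tested there, so this contrast is not particular to these genes. The values of Ptges2, Ptges3, Akr1b3 and Tbxas1 over all 13 libraries, 0.35, 0.14, 0.19 and 0.12, lie between those of the 2 sets. Among these enzymes the widest gap between the sets was that of Prxl2b, another prostaglandin F synthase, at 0.37 with TNTProx1 4 to 6 alone and -0.76 with TNTProx1 1 to 3 alone (edgeR adjusted p = 0.0996 and 0.0694), against -0.09 over all libraries. With the TEC share as a covariate its log2 fold change was -0.56 at an edgeR adjusted p of 0.0262. Cbr1, a carbonyl reductase, had 0.39 and -0.30, and the reductase Ptgr1 0.14 and -0.37, with TNTProx1 4 to 6 and 1 to 3 alone. The reductase Ptgr2 had -0.07 and -0.04 in these comparisons.

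**Figure D4:**
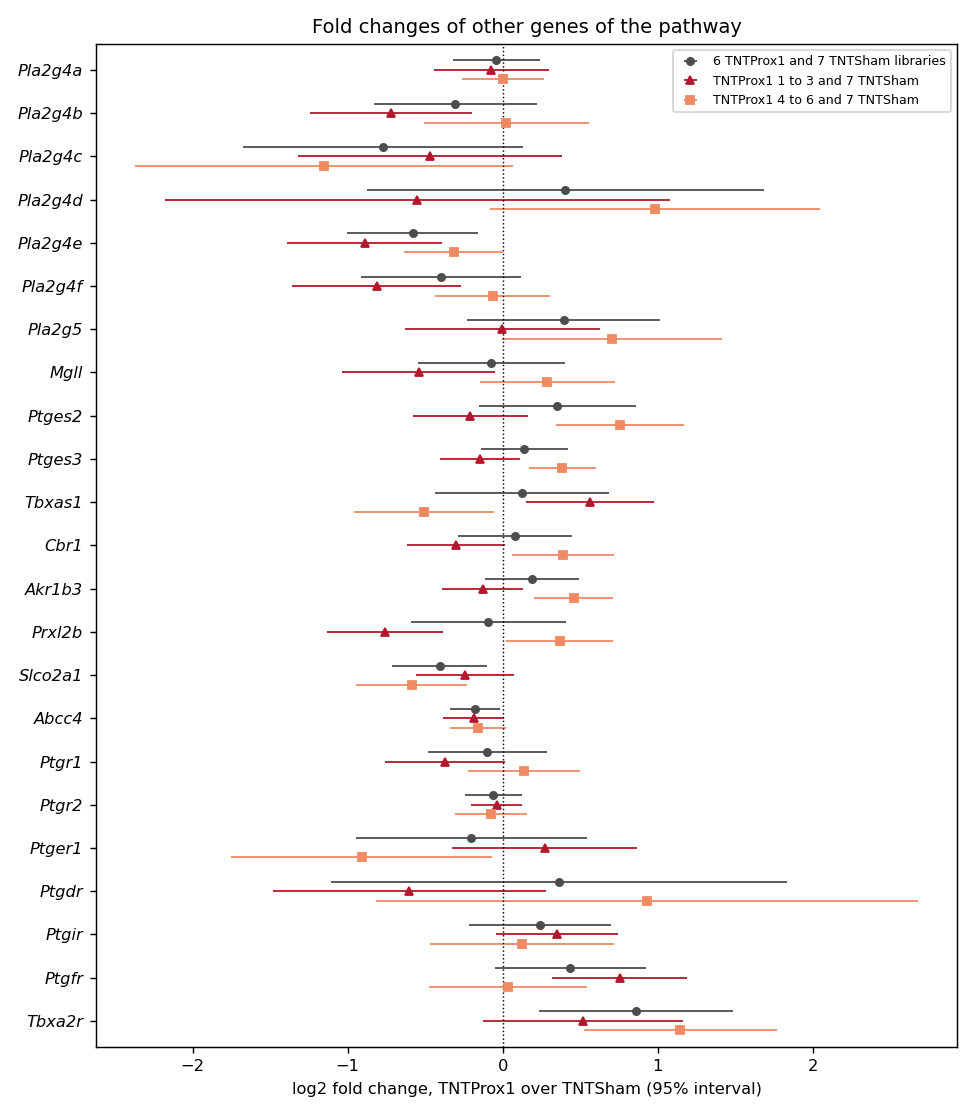
Log2 fold change, TNTProx1 over TNTSham, with 95% interval (horizontal axis) of the 23 tested further genes of the pathway, from all 13 libraries (circles), with TNTProx1 1 to 3 alone (triangles) and with TNTProx1 4 to 6 alone (squares). The centres of Slco2a1, Abcc4, Pla2g4e, Pla2g4a, Pla2g4c, Pla2g4f and Ptgr2 lie left of 0 in all 3 comparisons. Those of Tbxa2r, Ptgfr and Ptgir lie right of 0 in all 3. Many of these intervals include 0, such as those of Slco2a1, Abcc4 and Tbxa2r with TNTProx1 1 to 3 alone. The centres of the other genes, among them Ptges2, Ptges3, Akr1b3, Tbxas1, Prxl2b and Mgll, change side between the sets.

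Some of these genes overlap another annotated gene. Exons of Ptgs1, Ptgis, Ptger2 and Ptger4, and among the further genes of Slco2a1, Ptger1, Ptgdr, Ptgdr2, Ptgfr, Ptgr2, Prxl2b, Pla2g4b, Mgll and Tbxas1, overlap exons on the opposite strand, for Ptger4 those of the coding gene Ttc33 and for Slco2a1 those of a ribosomal RNA gene that has no row in the count table. Pla2g4e and Pla2g4b share exon positions with a gene on the same strand. The library kit kept the strand, but the sources used here do not say whether the counting used it, so the counts of these genes could miss reads or hold reads of the partner gene.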

How the data were processed

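The authors deposited raw gene-level counts of 13 libraries, and every column matched a sample by title. Libraries are numbered within a group in the order of the series, and the numbers pair no samples. Per the labels' protocols, ribosomal RNA was depleted and stranded libraries were sequenced in paired ends. Per the submitters' processing notes, the tools were fastp 0.20.1, HISAT2 2.2.1 on GRCm39, featureCounts of Subread 2.0.2, DESeq2 1.34.0 and R 4.1.2. The sources used here do not give the annotation release, the strand setting or how multiply mapping reads were handled. Symbols, gene classes, exon lengths and overlaps came from GENCODE M21 (older build), which matched 52081 of 55357 identifiers.

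Counts were scaled by TMM and tested in edgeR 4.0.16 (R 4.3.3) with the quasi-likelihood F test on the group alone, after filterByExpr (22876 genes), with Benjamini-Hochberg adjustment over all genes and a threshold of 0.05. Intervals use the t quantile of each gene's total degrees of freedom. Alternatives were DESeq2 1.42.0, limma 3.58.1 (voom with quality weights), other scalings and filters, robust fitting, the share of TEC genes as a covariate, and fits that leave out libraries. The tests were checked on simulated counts with known changes. Named were the 10 members, 24 further pathway genes, marker lists as a whole, and the 3 genes nearest each member by Spearman correlation, given for Ptgs2, Ptgis and Hpgds and otherwise as the nearest. The members and lists were chosen with earlier results of these data known. Promoter windows are RefSeq's.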

Additional observations from a re-analysis of the deposited data

Results flagged for a closer look

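In each group the highest and lowest library were compared with the rest, for 34 genes in both groups, which makes 68 comparisons. The measure was Dixon's, the gap to the next library over the range of the group, on CPM without logarithms. By chance alone about 5% of the comparisons would be picked out if the values were normally distributed, which was not checked. A larger share was picked out, and all of those are named below. The comparisons are not independent, since the genes share the same libraries. For Ptgs2 the gap was in TNTSham, where TNTSham 6 stood at 50.7 CPM and the next highest library at 24.4 CPM. Without it the log2 fold change was 1.82 in place of 1.35 (edgeR adjusted p = 0.171).

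Among the further genes, TNTProx1 4 stood out 4 times, with Ptgdr at 4.53 CPM, far above the other TNTProx1 libraries, Pla2g5, a secreted phospholipase, at 26.4 CPM, also far above, and Pla2g4c at 0.270 CPM and Ptgr2, a prostaglandin reductase, at 25.8 CPM, both far below. Leaving out TNTProx1 4 gave a log2 fold change of -1.03 for Ptgdr (0.36 when included) and of 0.07 for Pla2g5 (0.39 when included). Pla2g4b was high in TNTProx1 6 at 22.7 CPM. In TNTSham, Slco2a1 was high in TNTSham 4 at 116 CPM, Ptgr1, another reductase, was high in TNTSham 1 at 27.7 CPM, and Abcc4 was low in TNTSham 5 at 39.8 CPM.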

How the results depend on the processing

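The count of genes called, 0 with edgeR over all libraries, was 619 with DESeq2, 573 with limma voom, 545 with the TEC share as covariate, 1 without a filter on low counts and 7047 with TNTProx1 1 to 3 left out. The count was 0 with TNTProx1 4 to 6 left out. It ranged from 0 to 589 over the fits that leave out a single library, with 589 without TNTProx1 1, 34 without TNTSham 5 and 0 without any other. Over all these alternatives a member passed in 2. These were Ptgs2 in limma voom (1 of 10, beside 2.5% of all genes) and Ptges with TNTProx1 1 to 3 left out (1 of 10, beside 29.6%). Of the further genes, 1 of 23 passed in limma voom (Pla2g4e), beside 2.5% of all genes. With the TEC share 1 of 23 passed (Prxl2b, -0.56, edgeR adjusted p = 0.0262), beside 2.38%. With TNTProx1 1 to 3 left out 6 of 24 passed, beside 29.6% of all genes. They were Ptges2, Ptges3, Akr1b3, Slco2a1, Tbxa2r and Ptgdr2, which was kept there. The counts of members and of further genes were 0 in every fit that leaves out a single library.

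The log2 fold changes of Ptgs2 and Ptgis kept their sign in every alternative run, and that of Ptges in all but the one without TNTProx1 4 to 6. The fold changes below changed sign, and none of them was past the threshold over all libraries. The sign of Ptgs1 turned with DESeq2 (-0.0029), its size factors in edgeR (-0.0029) and upper quartile scaling (-0.011). With the TEC share as covariate it turned for Ptgs1 (-0.11), Pla2g4d (-0.21), Ptges3 (-0.048), Cbr1 (-0.19), Ptger1 (0.047) and Ptgdr (-0.076). In limma voom it turned for Ptgs1 (-0.051), Ptger4 (-0.083), Pla2g4d (-0.90), Ptges2 (-0.058), Ptges3 (-0.096), Cbr1 (-0.17), Akr1b3 (-0.028), Ptger1 (0.21) and Ptgdr (-0.86). With TNTProx1 4 to 6 left out it turned for Ptgs1 (-0.11), Ptges (-0.047), Ptger4 (-0.039), Pla2g4d (-0.55), Pla2g5 (-0.0012), Ptges2 (-0.21), Ptges3 (-0.15), Cbr1 (-0.30), Akr1b3 (-0.13), Ptger1 (0.27) and Ptgdr (-0.60). With TNTProx1 1 to 3 left out it turned for Ptgds (0.096), Hpgds (-0.077), Hpgd (0.15), Ptger2 (-0.32), Ptger3 (0.052), Pla2g4b (0.024), Mgll (0.29), Tbxas1 (-0.51), Prxl2b (0.37) and Ptgr1 (0.14). The lowest and highest values without a single library straddled 0 for Cbr1 (-0.032 to 0.17), Hpgd (-0.073 to 0.028), Hpgds (-0.035 to 0.094), Mgll (-0.19 to 0.053), Pla2g4a (-0.13 to 0.036), Prxl2b (-0.24 to 0.031), Ptgdr (-1.03 to 0.61), Ptger2 (-0.018 to 0.36), Ptger3 (-0.056 to 0.046), Ptger4 (-0.059 to 0.11), Ptgr1 (-0.23 to 0.012), Ptgr2 (-0.094 to 0.0018), Ptgs1 (-0.085 to 0.10) and Tbxas1 (-0.17 to 0.28). The cause was not tested.

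No paired analysis was possible because the labels give no replicate numbers shared between the groups. The 2 sets of TNTProx1 libraries differ in TEC share and in Malat1, and a difference in handling or processing between the sets was not tested. The width of the intervals limits what can be read from Ptgs2, Ptgds, Ptger2 and Ptgdr, and for Ptgs2 that width came from the spread between libraries, since its lowest level was 6.44 CPM.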
